A study of Mus musculus with 2 samples.

Results

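Levels of 10 genes that encode NF-kB subunits and their inhibitors were described in mouse LSK cells, the Lin- Sca-1+ c-Kit+ bone marrow cells among which haematopoietic stem and progenitor cells (HSPCs) are found. The genes, taken by symbol from 27998 genes in both libraries, were the subunits Nfkb1, Nfkb2, Rel, Rela and Relb, the inhibitors Nfkbia, Nfkbie, Nfkbid and Nfkbiz, and Tnfaip3, and all 10 were found. Transcripts of single cells were counted in a Trmt6 WT library and a Trmt6 conditional knockout (cKO) library, 1 per genotype, both from mice 3 months old, to ask how HSPCs change when Trmt6 is lost. The TRMT6 protein is part of the tRNA m1A methyltransferase. The labels give the WT genotype as Trmt6fl/fl and the cKO genotype as Trmt6fl/fl with MX1-cre, a recombinase driven by an interferon-inducible promoter that acts in cells other than blood cells as well. The study instead describes Mx1-Cre in both genotypes, with Trmt6+/+ as the WT genotype of this experiment, and injections of pIpC, the interferon inducer. How many mice gave each library is not given in the sources used here. With 1 library per genotype, genotype and library cannot be told apart, no difference has a replicate check, and all intervals are 95% intervals of counting error alone.

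NF-kB is a family of dimeric transcription factors built from RELA, RELB, c-REL and the processed products of Nfkb1 (p105 to p50) and Nfkb2 (p100 to p52). In resting cells the dimers are held in the cytoplasm by inhibitors of the IkB family, chiefly IkB-alpha, which Nfkbia encodes. Signals from cytokine and Toll-like receptors activate the IKK kinases, the inhibitor is degraded, and the freed dimers induce target genes. Among the first targets are Nfkbia itself, Nfkbie and Tnfaip3 (A20, a ubiquitin-editing enzyme), which shut the pathway down again, and the atypical nuclear IkB proteins Nfkbiz (IkB-zeta) and Nfkbid (IkB-NS), which act on the dimers at chromatin. In blood progenitors the pathway is known for its part in inflammatory stress and emergency myelopoiesis.

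NF-kB dimers bind kappaB sites in DNA, and the promoter stretches with such a motif are shown because several of these genes are targets of the factor they restrain. The 250 bases upstream of each start in RefSeq (GRCm38.p6) covered 7 of the 10 genes with 12 promoters, since Nfkb2, Nfkbid and Tnfaip3 have several starts, and they were searched on both strands for the kappaB consensus, for the AP-1 motif TGANTCA and for the CRE motif TGACGTCA. The kappaB consensus was found upstream of 6 of the 7 genes (all but Rela), against 4.46% of 27025 genes. A match is a description of the letters and not a measurement of binding. An AP-1 motif lay upstream of Nfkb2, Nfkbie and Tnfaip3, against 7.82% of all genes, and a CRE upstream of Nfkbid, against 1.77%. No entry was matched for Nfkb1, Relb and Nfkbiz. The whole upstream windows of Nfkbia and Rel, the inhibitor and the subunit whose levels are compared most closely here, are printed 5′ to 3′ on the strand of the gene, with the bases of the kappaB consensus in capitals (in Rel 2 overlapping matches merged), followed by 30-base stretches from the other genes.
Nfkbia, chr12:55492648-55492897, minus strand: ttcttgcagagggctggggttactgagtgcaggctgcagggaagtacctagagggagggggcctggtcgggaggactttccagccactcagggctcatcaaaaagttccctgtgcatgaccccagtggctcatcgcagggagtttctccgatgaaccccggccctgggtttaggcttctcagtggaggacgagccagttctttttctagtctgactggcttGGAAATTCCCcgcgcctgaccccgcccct
Rel, chr11:23770970-23771219, minus strand: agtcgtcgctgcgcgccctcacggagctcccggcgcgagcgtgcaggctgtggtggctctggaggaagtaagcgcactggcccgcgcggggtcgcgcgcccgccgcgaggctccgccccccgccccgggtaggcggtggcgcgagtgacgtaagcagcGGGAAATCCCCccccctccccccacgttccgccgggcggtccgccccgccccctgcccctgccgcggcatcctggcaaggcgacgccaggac
Tnfaip3, chr10:19015516-19015545, minus strand: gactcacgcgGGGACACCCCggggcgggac
Tnfaip3, chr10:19015411-19015440, minus strand: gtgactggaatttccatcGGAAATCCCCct
Nfkbid, chr7:30422215-30422244, plus strand: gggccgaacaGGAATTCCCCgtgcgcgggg
Nfkbie, chr17:45555584-45555613, plus strand: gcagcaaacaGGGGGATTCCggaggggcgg
Nfkb2, chr19:46304689-46304718, plus strand: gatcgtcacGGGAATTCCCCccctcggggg
The match in Nfkbia began 29 bases before the start, that in Rel 92 bases before it, and the 2 in Tnfaip3 125 and 12 bases before it. On GRCm38 the gene Nfkbia lies on chromosome 12 from 55489410 to 55492647, Rel on chromosome 11 from 23736847 to 23770970, Tnfaip3 on chromosome 10 from 19000910 to 19015657 and Nfkbiz on chromosome 16 from 55811375 to 55838899, all on the minus strand. None of the 10 genes overlaps another gene of the matrix on its own strand. Nfkb2 alone overlaps one on the opposite strand (Psd), and whether its UMIs hold any from that gene was not tested.

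The WT library held 8869 barcodes and 47991455 UMIs and the cKO library 9260 barcodes and 98323201 UMIs. After the cell limits of the study and removal of likely doublets, 8145 WT cells (41581586 UMIs, median 4120 per cell) and 8483 cKO cells (86925731 UMIs, median 10010 per cell) were kept, and 19 of their barcodes were shared between the libraries. The cKO library was the deeper one, so cells were sorted into lineages after thinning each to 2000 UMIs, and 205 WT and 105 cKO cells with fewer stayed out. A cell took the name of the marker list of which it held the most genes, if at least 3 and more than of any other list, and none of the 10 genes is a marker. Classes are named X-like for this reason. Trmt6 itself was at 63.5 CPM (UMIs scaled to an equal total per library) in WT against 50.7 CPM in cKO, and whether its counted 3′ end lies in the deleted part is not given in the sources used here.

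The gate gave 201 WT and 318 cKO HSC-like cells (haematopoietic stem cells), 442 and 161 LMPP-like cells (lymphoid-primed progenitors), 2695 and 250 GMP-like cells (granulocyte-monocyte progenitors) and 121 and 67 Monocyte/DC-like cells (dendritic cells), and left 4242 and 7441 cells ungated. Levels were compared between the libraries in these 4 classes and in the ungated cells. The WT library also held 100 Neutrophil-like and 92 Megakaryocyte-like cells, and the cKO library 74 B cell-like cells. Neutrophil-like cells numbered 0 of 8378 in cKO, which allows a share of up to 0.0358% (3 counts of the total). The classes were thin: 76.1% of WT and 77.4% of cKO HSC-like cells had just 3 markers. The markers themselves differed between the libraries within a class, by more than 1 on the log2 scale for 3 of 10 HSC, 3 of 10 LMPP, 6 of 8 GMP and 10 of 10 Monocyte/DC markers, so the GMP-like and Monocyte/DC-like cells of the libraries are less alike than the names say. Classes also differed in the markers of other lineages. LMPP-like cells had B cell markers at 84.0 CPM in WT against 357 CPM in cKO and GMP markers at 1159 and 367 CPM. HSC-like cells had neutrophil markers at 329 and 3.74 CPM and GMP markers at 1245 and 659 CPM. In GMP-like cells neutrophil markers were at 1382 and 69.6 CPM, and in Monocyte/DC-like cells at 156 and 4.45 CPM. The ungated cells differed too, with GMP markers at 1766 CPM in WT against 585 CPM in cKO and neutrophil markers at 478 and 5.56 CPM. Their LMPP markers were at 435 and 132 CPM, while their HSC markers were closer, at 320 and 294 CPM. The part of these markers in the differences given here was not tested. Over all kept cells the summed GMP markers were at 6581 CPM in WT against 780 CPM in cKO, and the neutrophil markers at 5650 and 8.10 CPM. Kit was at 63.9 and 21.7 CPM and Ly6a (Sca-1) at 34.97 and 142 CPM.

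Over all kept cells the inhibitors were lower in cKO and most subunits were not. Of the 10 genes, 6 were lower in cKO with intervals below 0 (Nfkbia, Nfkbie, Nfkbid, Nfkbiz, Tnfaip3 and the subunit Rel), and the other subunits Nfkb1, Nfkb2, Rela and Relb were higher with intervals above 0. Of all genes tested, 45.6% had intervals below 0 and 33.4% above 0, so an interval clear of 0 was common among genes at this depth and sets none of the 10 apart. A difference of at least 1 on the log2 scale was found for 4 of the 10, all lower in cKO (Tnfaip3, Nfkbiz, Rel and Nfkbid), against 5.21% of the 9149 genes tested (at 5 CPM or more in a library and with at least 20 UMIs). None of the 10 was higher by that much, against 2.93% of all genes. The median log2 ratio of cKO over WT was -0.52 over the 10 genes and -0.07 over all genes tested. Scaling by 3 other measures of library size raised every ratio by about 0.10 (0.0965 to 0.104), and Rel and Nfkbid then fell just short of a difference of 1. The count also changed with cells weighted to the same mix of 4 groups by immediate early UMIs (Fos, Jun and others), an alternative chosen after these values were seen. Of the 10 genes, 1 then stayed lower by at least 1 (Rel, -1.23), Nfkbiz and Nfkbid were at -0.48 and -0.10, Nfkbia, Nfkbie and Tnfaip3 turned to 0.59, 0.43 and 0.44, and Nfkb2 and Relb were higher by at least 1 (1.07 and 1.24), values that rest on 99 cKO cells in the highest group. Without that group Rel was at -1.20, Tnfaip3 at -0.96, Nfkbie at -0.13 and Nfkbia at 0.12, and no gene was higher by at least 1.

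Immediate early genes were also lower in cKO over all kept cells, and their values are given here beside the results that follow. Of 13 listed immediate early and stress genes, such as Fos, Jun, Egr1 and Dusp1, 11 were above the minimum. All 11 were lower in cKO by at least 1, against 5.21% of all genes tested, with a median log2 ratio of -2.56. Their summed level was 5306 CPM in WT against 1157 CPM in cKO. It was lower in cKO in each class compared: 8973 and 1639 CPM in HSC-like, 6220 and 1311 CPM in LMPP-like, 4083 and 1030 CPM in GMP-like, and 3881 and 1559 CPM in Monocyte/DC-like cells. In the small classes that were not compared it was not always so: Basophil/mast-like cells were at 8803 CPM in WT against 10751 CPM in cKO. The part of these genes in the results was not tested.

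Among the subunits, Nfkb1, the precursor of p50, gave the most UMIs. It was at 71.1 CPM (68.5 to 73.7) in WT against 76.9 CPM (75.1 to 78.8) in cKO, for a log2 ratio of 0.11. In HSC-like cells it stood at 94.96 and 97.6 CPM, in GMP-like cells at 66.6 and 75.2 CPM, in Monocyte/DC-like cells at 129 and 93.4 CPM and in LMPP-like cells at 80.3 and 60.9 CPM. The LMPP-like ratio of -0.40 had an interval that ended just below 0 (-0.80 to -0.01), and the other 3 intervals held 0. Nfkb1 was highest in 31 cKO cells of the T/NK-like class, at 286 CPM (197 to 401).

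Rela, which carries a transactivation domain and forms the classical dimer with p50, differed little. It was at 26.5 CPM in WT against 29.8 CPM in cKO, for a log2 ratio of 0.17 (0.07 to 0.28). Its interval held 0 in each of the 4 classes and in the ungated cells, where the level was 29.7 and 30.0 CPM.

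Rel, which encodes c-REL, was the subunit that was lower. It was at 23.9 CPM (22.4 to 25.4) in WT against 11.4 CPM (10.7 to 12.2) in cKO, for a log2 ratio of -1.06 (-1.19 to -0.93). In WT it was highest in LMPP-like cells, at 46.2 CPM (37.0 to 57.0), and in cKO that class stood at 14.9 CPM (9.20 to 22.7). In GMP-like cells it was at 20.5 and 9.01 CPM, and in HSC-like cells at 23.0 CPM from 15 UMIs and 11.2 CPM from 24 UMIs. The log2 ratios were -1.61 (-2.40 to -0.94) in LMPP-like, -1.16 (-1.75 to -0.66) in GMP-like and -1.05 in HSC-like cells, where the interval ran from -2.03 to just under 0. In Monocyte/DC-like cells 20 WT and 3 cKO UMIs gave a ratio of -1.78 (-4.36 to -0.22). In HSC-like cells the lower level rested on few UMIs and on the gate: with cells thinned to 1000 UMIs for the gate the ratio was 0.0041, and with levels from thinned cells it was -0.66.

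The genes of the noncanonical pathway, in which p52 pairs with RELB, were low and, over all kept cells, went the other way. Relb was at 5.44 CPM in WT against 7.63 CPM in cKO, for a log2 ratio of 0.49 (0.27 to 0.71), and Nfkb2 was at 3.56 and 5.69 CPM, for a log2 ratio of 0.67 (0.41 to 0.95). In GMP-like cells Nfkb2 was at 3.43 CPM from 62 UMIs and 6.48 CPM from 23 UMIs, a ratio of 0.93 (0.16 to 1.63). Relb in Monocyte/DC-like cells had 3 WT and 13 cKO UMIs, for a ratio of 2.71 (1.02 to 5.33) below the minimum of 20 UMIs. In LMPP-like cells Relb was at 11.2 and 5.66 CPM with an interval that held 0 (-2.36 to 0.25). In GMP-like cells it was at 3.82 and 2.82 CPM, a ratio of -0.38. The ratio was 0.11 in HSC-like and 0.24 (-0.04 to 0.54) in ungated cells, and the intervals of these classes held 0 too.

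Nfkbia made up 52.5% of the UMIs of the 10 genes in WT. It was at 195 CPM (191 to 199) in WT against 132 CPM (130 to 135) in cKO, for a log2 ratio of -0.56 (-0.60 to -0.52). In WT the order of the classes with at least 50 cells ran from LMPP-like cells, at 266 CPM, to GMP-like cells, at 168 CPM, and the intervals of neighbours in that order overlapped. In cKO, among the classes of at least 50 cells, Monocyte/DC-like cells were highest at 300 CPM (252 to 355), B cell-like cells were at 200 CPM (163 to 242), HSC-like cells were at 175 CPM (158 to 194) and LMPP-like cells at 162 CPM (142 to 184), and GMP-like cells were lowest at 109 CPM (98.7 to 121). The ratio was -0.36 (-0.63 to -0.07) in HSC-like, -0.71 (-0.95 to -0.48) in LMPP-like and -0.62 (-0.78 to -0.47) in GMP-like cells. With levels from thinned cells the LMPP-like ratio was -0.27. The lower level over all kept cells was not seen with the same mix of immediate early groups (0.59, or 0.12 without the highest group). In Monocyte/DC-like cells, at 254 CPM in WT, it was 0.24 with an interval that held 0 (-0.08 to 0.57). In smaller classes cKO T/NK-like cells were at 364 CPM (262 to 492), and the highest Nfkbia levels of both libraries were in the few Basophil/mast-like cells, at 723 CPM (511 to 992) in 8 WT cells and 489 CPM (343 to 677) in 17 cKO cells.

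**Figure D1:**
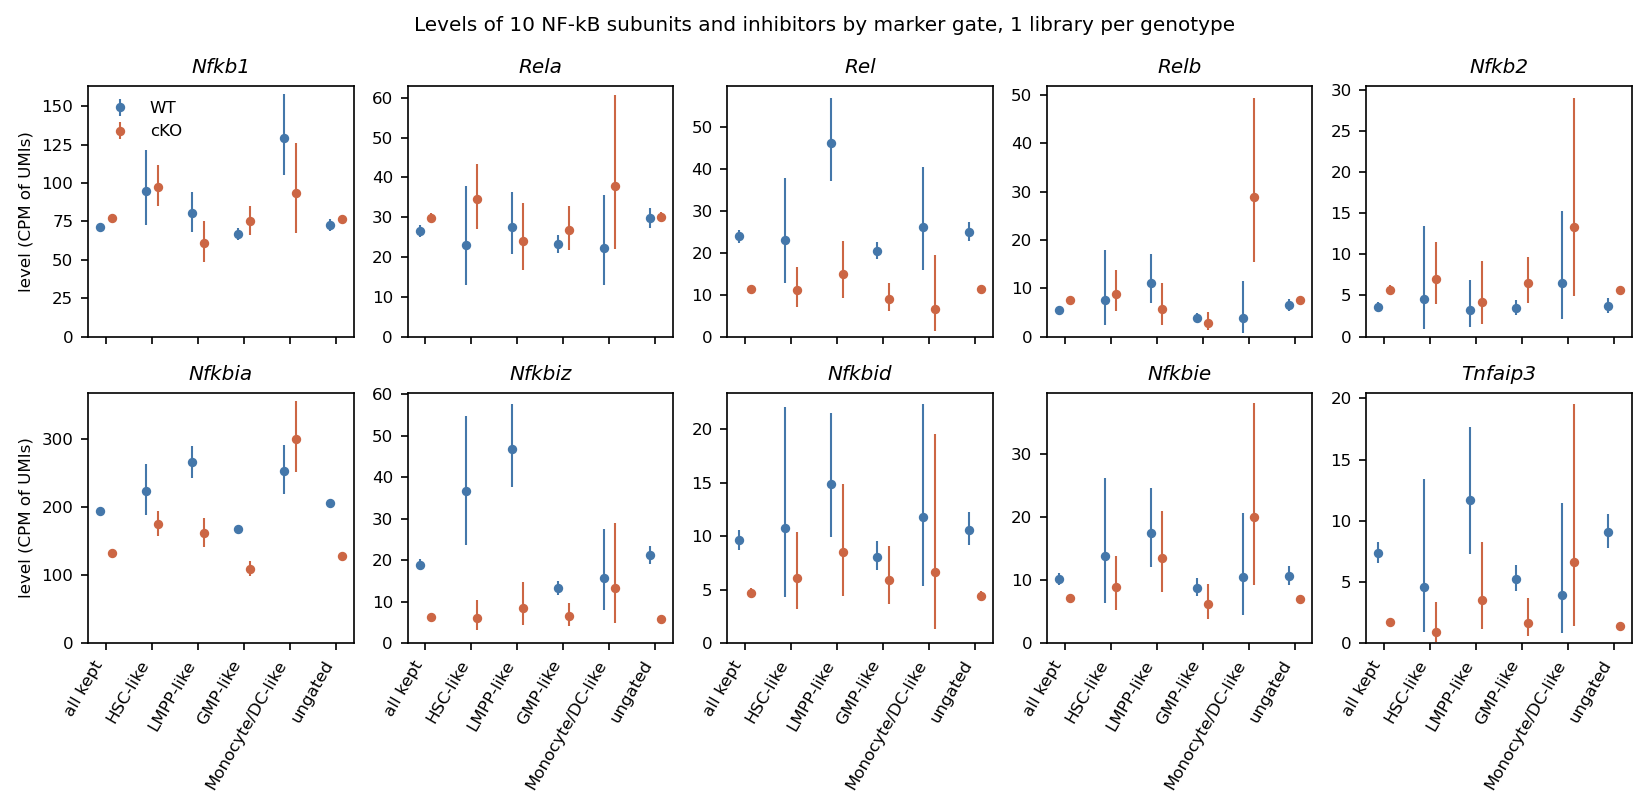
Level of each gene in CPM of UMIs (vertical axis, linear from 0, own scale per gene) in all kept cells and in each class compared, with WT in blue and cKO in orange; points are sums over the cells of 1 library and bars are 95% Poisson intervals. Rel, Nfkbiz and Tnfaip3 lie lower in cKO over all kept cells, while Nfkb1 (71.1 and 76.9 CPM) and Rela (26.5 and 29.8 CPM) lie close together.

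Nfkbiz, the atypical inhibitor that is also a coactivator of secondary response genes, was lower in cKO in HSC-like, LMPP-like and GMP-like cells. It was at 18.9 CPM (17.6 to 20.2) in WT against 6.32 CPM (5.80 to 6.87) in cKO, for a log2 ratio of -1.58 (-1.74 to -1.42). Among the WT classes of at least 50 cells it was highest in LMPP-like cells, at 46.8 CPM, and HSC-like cells, at 36.8 CPM, and both lay above GMP-like cells, at 13.3 CPM (11.7 to 15.1). In cKO these 3 classes were close together, at 8.49, 6.07 and 6.48 CPM, with overlapping intervals. The ratios were -2.57 (-3.69 to -1.57) in HSC-like, -2.41 (-3.47 to -1.58) in LMPP-like and -1.01 (-1.72 to -0.42) in GMP-like cells. In Monocyte/DC-like cells, with 12 and 6 UMIs, no difference was detectable at this depth (-0.18, from -1.93 to 1.29). The GMP-like ratio lay just past -1 and was -0.90 with median-of-ratios factors and -0.95 with a gate of 4 markers, but -2.52 with levels from thinned cells, where 1 of 250 cKO cells held a UMI. The LMPP-like ratio was -1.85 with thinned levels. The HSC-like and GMP-like intervals overlap narrowly, so no order of the classes is read from these ratios.

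Over all kept cells Tnfaip3 had the largest fold of the 10 genes. It was at 7.36 CPM (6.56 to 8.23) in WT against 1.71 CPM (1.45 to 2.01) in cKO, which is 4.29-fold higher in WT, for a log2 ratio of -2.10 (-2.39 to -1.81). With each cell scaled before averaging, so that shallow cells count as much as deep ones, the ratio was -1.30, and Nfkbiz then had the larger fold. With the same mix of immediate early groups the Tnfaip3 ratio was 0.44 (-0.96 without the highest group). In HSC-like and LMPP-like cells Nfkbiz also had the larger fold. Tnfaip3 was at 11.7 and 3.54 CPM in LMPP-like cells, with 22 and 5 UMIs, and at 5.26 and 1.69 CPM in GMP-like cells, with 95 and 6 UMIs. The ratios were -1.62 (-3.48 to -0.29) and -1.53 (-3.12 to -0.46). In GMP-like cells the difference was not seen at equal depth: after thinning to 2000 UMIs, 1.52% of WT and 1.60% of cKO cells held a UMI, and the ratio turned to 0.19. HSC-like cells had 3 WT and 2 cKO UMIs, too few for a comparison (-2.20, from -5.88 to 0.83). Most of its UMIs were in ungated cells, at 9.11 CPM in WT against 1.42 CPM in cKO. The ungated cells of the libraries differed in lineage markers, and the part of this in the Tnfaip3 difference was not tested.

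Nfkbid and Nfkbie completed the inhibitors. Nfkbid was at 9.62 CPM (8.70 to 10.6) in WT against 4.71 CPM (4.26 to 5.18) in cKO, for a log2 ratio of -1.03 (-1.23 to -0.83), and Nfkbie, which encodes IkB-epsilon, was at 10.1 CPM (9.18 to 11.1) and 7.25 CPM (6.69 to 7.84), a ratio of -0.48 (-0.66 to -0.30). In HSC-like, LMPP-like and GMP-like cells the ratios of Nfkbid were -0.87, -0.78 and -0.42 and those of Nfkbie -0.68, -0.37 and -0.48, and each of these 6 intervals held 0. Both differences were therefore seen over all cells and over ungated cells and were not detectable class by class. The part that the differing lineage markers of the ungated cells had in them was not tested. With the other scalings, and with the same mix of immediate early groups, Nfkbid fell short of a difference of 1. Nfkbie turned higher in cKO with that mix, though not without the highest group.

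Counted by class, 2 of the 8 genes above the minimum in HSC-like cells were lower in cKO by at least 1 (Rel and Nfkbiz), against 6.81% of all genes tested there. In LMPP-like cells 3 of 9 were (Rel, Nfkbiz and Tnfaip3), against 8.56%, and all 9 ratios were below 0, as were those of 55.1% of all genes tested there. Tnfaip3 was at -0.53 in LMPP-like cells with the gate at 1000 UMIs. In GMP-like cells the same 3 symbols of 9 were, against 5.2%, though each of the 3 missed a difference of 1 under some alternative (Rel at -0.92 with a gate of 4 markers and -0.85 with the gate at 1000 UMIs), in Monocyte/DC-like cells 1 of 4 (Rel), against 6.72%, and in ungated cells 4 of 10, against 6.35%. The number higher by at least 1 was 0 in each of these, against 4.03%, 3.73%, 2.64%, 6.54% and 2.56% of genes. The median ratio of the genes above the minimum was -0.52, -0.78, -0.48, -0.11 and -0.64 in HSC-like, LMPP-like, GMP-like, Monocyte/DC-like and ungated cells, and that of all genes -0.08, -0.08, -0.05, 0.01 and -0.12.

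**Figure D2:**
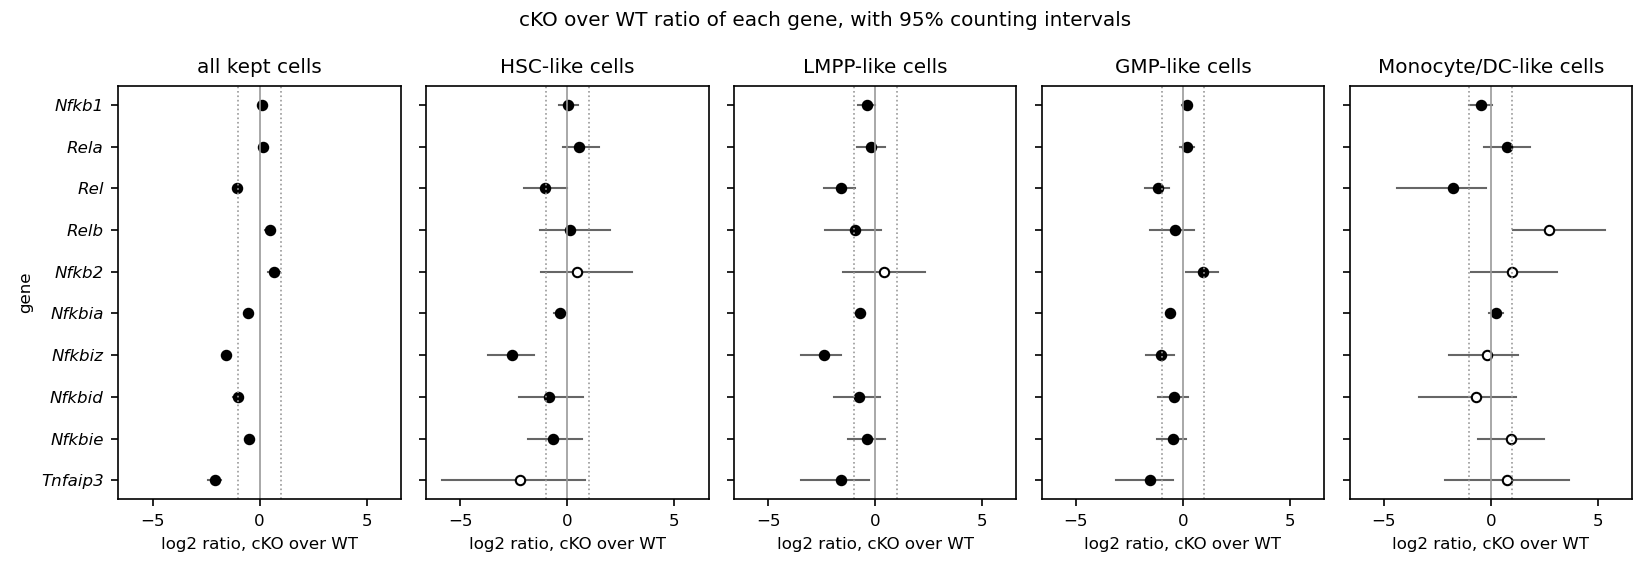
log2 ratio of cKO over WT (horizontal axis) for each of the 10 genes in all kept cells and in the 4 named classes; lines are 95% counting intervals, open circles are genes with fewer than 20 UMIs over both libraries and dotted lines mark a difference of 1. Rel lies to the left of 0 in each panel, at -1.06 over all kept cells, and Nfkbia lies left of 0 in all panels but that of Monocyte/DC-like cells (0.24).

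At equal depth the same genes were found in fewer cKO cells. After thinning to 2000 UMIs, at least 1 Nfkbia UMI was found in 30.1% (29.1% to 31.1%) of cells in WT against 22.9% (22.0% to 23.8%) in cKO, Rel in 4.82% and 2.18%, Nfkbiz in 4.36% and 1.39%, and Tnfaip3 in 1.73% and 0.394%. The share was lower in cKO with intervals apart for 6 of the 10 genes, against 30% of all genes tested, and higher for 1 (Nfkb1, 13.6% and 15.2%), against 21.7%. At 1000 UMIs 6 were lower, against 23.3%, and 0 higher, against 16.5%, so the higher share of Nfkb1 was not seen at that depth. Without thinning, when the deeper cKO cells have more chances to hold a UMI, 2 genes were lower and 6 higher, against 3.36% and 91.6% of all genes. In HSC-like cells the Nfkbia share was 28.9% (22.7% to 35.6%) and 29.6% (24.6% to 34.9%), so no difference in share was detectable there. The mean was 0.458 and 0.387 UMIs per cell, and at 1000 UMIs it was 0.204 in both libraries, so the lower cKO level was not seen at that depth. In LMPP-like cells the share at 2000 UMIs was 35.3% (30.8% to 39.9%) and 33.5% (26.3% to 41.4%), with a mean of 0.518 and 0.429 UMIs per cell, so no difference in share was detectable there either. In GMP-like cells the share was 27.7% (26.0% to 29.5%) and 17.2% (12.7% to 22.5%), lower in cKO with intervals apart. In Monocyte/DC-like cells it was 30.6% (22.5% to 39.6%) and 41.8% (29.8% to 54.5%), higher in cKO with intervals that overlap. A cell type that lacks these genes was not at hand, so a share for background RNA is not given.

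Over all kept cells, those with more Nfkbia UMIs held more immediate early transcripts in both libraries. In WT, the 192 cells with 3 or more Nfkbia UMIs per 2000 had a summed immediate early level of 10396 CPM, against 6157 CPM in the 5550 cells with none, and a Nfkbiz level of 49.5 against 20.6 CPM. In cKO, the 76 such cells had 3967 against 1216 CPM of immediate early genes. Before thinning, such cells had a median of 6232.5 UMIs against 10291 with none in cKO, and 3676.5 against 4291.5 in WT. The summed level of the other 9 genes was 441 CPM (342 to 560) in these cKO cells against 160 CPM (153 to 167) in cKO cells without Nfkbia. In WT it was 214 CPM (170 to 265) against 185 CPM (177 to 193), intervals that overlap. Nfkb1 was at 44.3 and 72.3 CPM in the same WT cells, and at 79.4 CPM in WT cells with 1 or 2 Nfkbia UMIs. It did not go steadily up with Nfkbia there. In cKO it was at 132 CPM in cells with 3 or more and 83.0 CPM in cells with none. By class the numbers were small, and in WT HSC-like cells the immediate early level was lower in the 6 cells with 3 or more Nfkbia UMIs, at 6917 against 9003 CPM. Of the 76 cKO cells 7 were Monocyte/DC-like, with the other 9 genes at 1214 CPM.

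**Figure D3:**
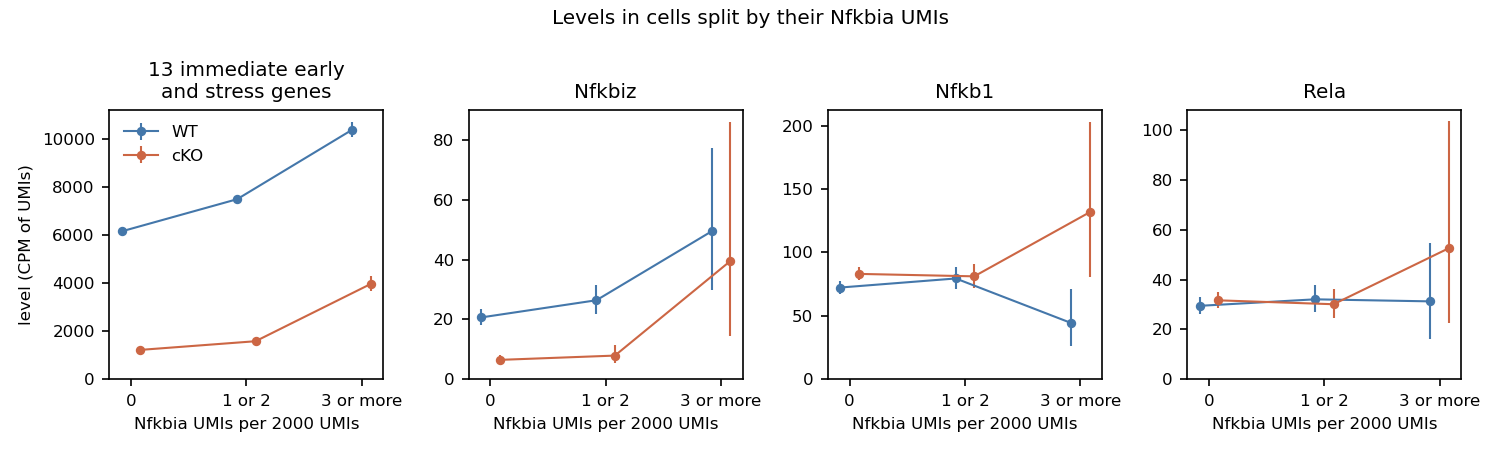
Level in CPM (vertical axis) of the summed immediate early and stress genes, Nfkbiz, Nfkb1 and Rela in cells with 0, 1 or 2, and 3 or more Nfkbia UMIs per 2000 (horizontal axis), with WT in blue and cKO in orange; bars are 95% Poisson intervals. The immediate early level climbs with Nfkbia in both libraries, from 6157 to 10396 CPM in WT and, in cKO, from 1216 to 3967 CPM.

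The members were next compared between WT and cKO cells grouped by their number of immediate early UMIs, a split chosen after the values above were seen. The median cell held 10 such UMIs per 2000 in WT against 2 in cKO. In cells with 0 to 2 of them (1044 WT and 4975 cKO cells) Nfkbia was at 110 CPM in WT against 116 CPM in cKO, and in cells with 3 to 5 (1284 and 2556 cells) at 153 and 156 CPM. The ratios were 0.08 (-0.12 to 0.29) and 0.02 (-0.15 to 0.20), and in cells with 6 to 11 (1931 and 748 cells) 0.24 (0.05 to 0.43). In the group with 12 or more (3681 WT and 99 cKO cells) it was at 272 and 601 CPM, with a ratio of 1.15 (0.86 to 1.41). The number of these UMIs can still differ between the libraries within a group, so the groups are a description and no cause was tested.

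Rel was at 22.5 CPM in WT against 11.5 CPM in cKO in cells with 0 to 2 immediate early UMIs, at 30.8 and 10.8 CPM with 3 to 5, and at 22.3 and 10.0 CPM with 6 to 11. The ratios were -0.98 (-1.48 to -0.45), -1.51 (-2.04 to -1.001) and -1.11 (-2.05 to -0.35), and in the group of 12 or more, with 2 cKO UMIs, -1.04 (-4.42 to 0.51). Nfkbiz climbed with immediate early content in WT, from 6.23 to 12.1, 16.8 and, with 12 or more UMIs, 34.6 CPM. Its ratios were -0.27, -0.40 and -0.91 in the first 3 groups, where the first 2 intervals held 0. In the same 3 groups Tnfaip3 had ratios of -1.82, -1.15 and -0.45, where the last 2 intervals held 0. In the group of 12 or more, Nfkbiz had a ratio of -0.32 (-2.09 to 0.79), and Tnfaip3 went the other way, at 12.5 and 30.3 CPM, with a ratio of 1.39 (-0.21 to 2.45). Nfkb1 was higher in cKO with 6 to 11 (0.61, from 0.32 to 0.89) and 12 or more (1.05, from 0.45 to 1.56). Relb was higher with 0 to 2 (1.64, from 0.48 to 3.43) and Nfkb2 with 6 to 11 (1.67, from 0.20 to 3.23). Those WT values rest on 5 Relb and 8 Nfkb2 UMIs. In the other groups their intervals held 0, as did those of Rela, Nfkbid and Nfkbie in each group.

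The 99 cKO cells with 12 or more immediate early UMIs were of another make-up than the 3681 WT cells. Basophil/mast-like, B cell-like and T/NK-like cells numbered 12, 9 and 8 of the 99 cKO cells and 4, 3 and 2 of the 3681 WT cells. Thinned counts of immediate early UMIs carry sampling error, and cells grouped by them were not matched on lineage.

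**Figure D4:**
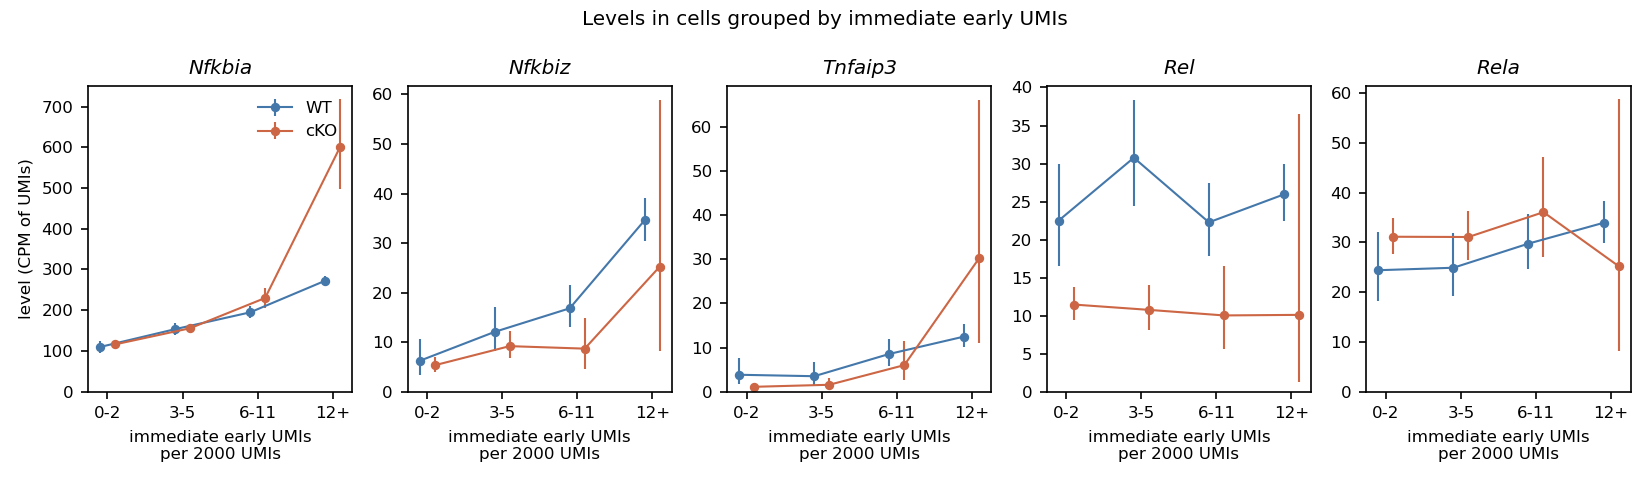
Level in CPM (vertical axis, linear from 0) of Nfkbia, Nfkbiz, Tnfaip3, Rel and Rela in cells grouped by their immediate early UMIs per 2000 (horizontal axis), with WT in blue and cKO in orange; bars are 95% Poisson intervals. Nfkbia is nearly equal in the libraries in the first 2 groups (110 and 116 CPM, 153 and 156 CPM) and higher in cKO in the last (272 and 601 CPM), and Rel is lower in cKO in the first 3 groups with intervals apart; the last cKO group holds 99 cells.

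The rest of the pathway was read from lists of its parts. Of 13 receptors, 4 were above the minimum, and 1 was lower in cKO by at least 1, against 5.21% of all genes tested. It was Il1r1, the signalling receptor for interleukin 1, at 13.6 and 5.37 CPM (-1.34). The lymphotoxin receptor Ltbr, which feeds the noncanonical pathway, was at 12.4 and 15.8 CPM (0.35), and the TNF receptors Tnfrsf1a and Tnfrsf1b had ratios of 0.07 and -0.17 with intervals that held 0.

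The adaptors and kinases differed little in size over all kept cells. Of 23, 17 were above the minimum, and their median ratio was -0.17. In either direction 0 differed by at least 1, against 5.21% of all genes tested lower and 2.93% higher. The lowest ratios were those of Map3k14 (NIK, the kinase of the noncanonical pathway, -0.67), Ikbkb (the IKK-beta kinase, -0.63) and Birc2 (a ubiquitin ligase, -0.53), and the highest those of the adaptor Myd88 (0.54), the IKK-alpha kinase Chuk (0.08) and Tab2 (-0.04). Of the 17, 10 intervals lay below 0 and 1 above, against 45.6% and 33.4% of all genes tested. By class, Map3k14 was lower by at least 1 in HSC-like cells (9 WT and 12 cKO UMIs, -1.32, from -2.67 to 0.13) and Tab2 higher in Monocyte/DC-like cells (13 and 23 UMIs, 1.57, from 0.55 to 2.69), and none differed by that much in LMPP-like, GMP-like or ungated cells.

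Other inhibitors moved both ways. All 12 were above the minimum, with 1 lower by at least 1 and 1 higher, against 5.21% and 2.93% of all genes tested. Zc3h12a (Regnase-1, an RNase that degrades inflammatory mRNAs) was at 9.55 and 3.87 CPM (-1.30), whereas Bcl3, an atypical IkB protein that binds p50 and p52 homodimers, was at 6.18 and 16.3 CPM (1.40, from 1.21 to 1.60). Bcl3 was higher in HSC-like (6.13 and 21.0 CPM, ratio 1.62) and GMP-like cells (5.43 and 16.6 CPM, ratio 1.62), whereas LMPP-like cells held 12 WT and 2 cKO UMIs, below the minimum. The deubiquitinases Cyld (-0.58) and Otulin (-0.57) came next from below and N4bp1 (0.26) and Nfkbib (0.18), the latter coding for IkB-beta, next from above.

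Targets showed the widest spread. Of 20 listed, 13 were above the minimum, with a median of -0.72. Of these, 5 were lower by at least 1, against 5.21% of all genes tested, and none was higher by that much, against 2.93%. The chemokine genes Ccl3 and Ccl4 were at 179 and 189 CPM in WT against 3.46 and 11.7 CPM in cKO, ratios of -5.69 and -4.01, and Zfp36, which encodes an mRNA-destabilizing protein, was at 174 and 40.8 CPM (-2.09). The other 2 were Ier3 and Gadd45b, at -1.75 and -1.19. At the other end were Sod2, the mitochondrial superoxide dismutase, at 112 and 152 CPM (0.44), Plaur (0.32) and Icam1 (0.25), also textbook targets, each with an interval above 0. Zfp36, Ier3 and Gadd45b are immediate early genes too, so this list is not separate from that response.

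**Figure D5:**
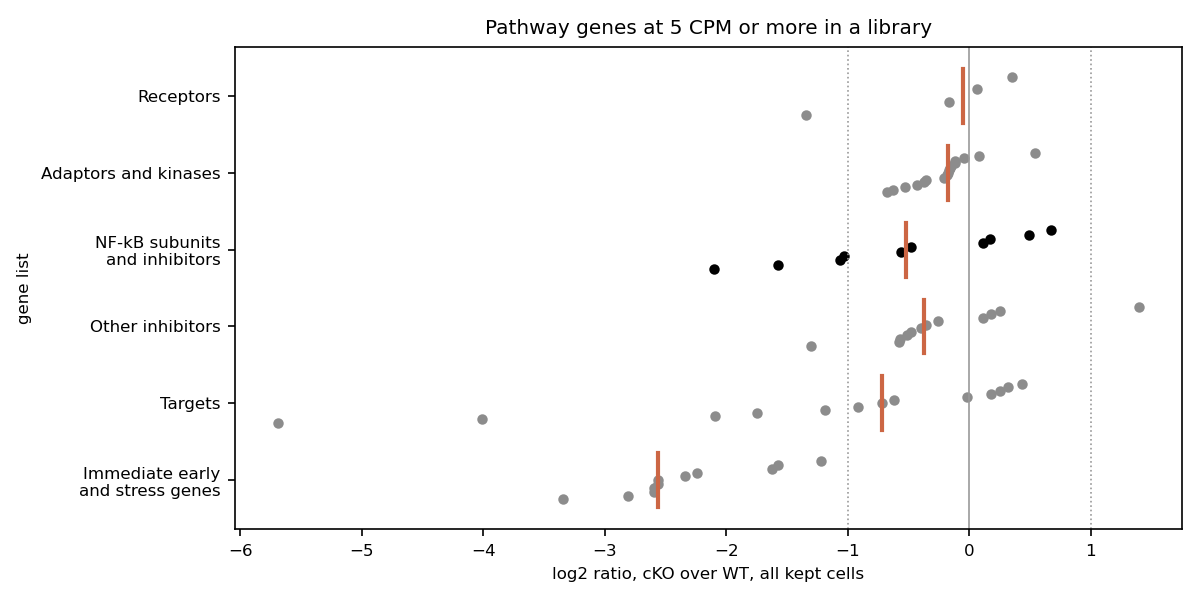
log2 ratio of cKO over WT over all kept cells (horizontal axis) for each gene above the minimum in 6 lists of the pathway (vertical axis); each point is a gene, vertical orange bars are medians and dotted lines mark a difference of 1. The medians run from -0.05 in receptors to -2.56 in immediate early and stress genes, with the 10 subunits and inhibitors at -0.52.

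Genes with a pattern most like that of Nfkbia, Nfkb1 and Rel were sought over 13 points (7 WT and 6 cKO classes of at least 50 cells) among 7109 genes, by Pearson's correlation of log2 CPM with 10 CPM added. The points share their library and the gate, so the values are descriptions. For Nfkbia these were Btg1 (0.877), an antiproliferative gene, Stk38 (0.868) and Rnase6 (0.852). For Nfkb1 they were Rnh1 (0.934), Laptm5 (0.919) and Taf11 (0.908), and for Rel Gramd1a (0.938), Zfp414 (0.936) and Wfdc17 (0.891). Within the points of 1 library some were far lower: Stk38 was at 0.449 and Rnase6 at 0.665 within WT, and Zfp414 at 0.651 and Wfdc17 at -0.42 within cKO.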

How the data were processed

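The authors deposited UMI counts per gene and cell barcode, made with Cell Ranger 6.0.0 on mm10 (the submitters' processing notes); no normalization had been applied, and the labels name the v2 and the methods the v3 kit. Cells were kept at more than 200 genes, fewer than 4000 (WT) or 4500 (cKO) genes, under 10% (WT) or 5% (cKO) mitochondrial UMIs and under 5% hemoglobin UMIs. Likely doublets were scored by the share of simulated doublets among 50 neighbours and removed at 0.8% per 1000 barcodes (618 WT and 668 cKO cells). Levels are CPM of summed UMIs with exact Poisson intervals. log2 ratios use 0.5 prior counts and conditional binomial intervals, and shares have Clopper-Pearson intervals (scipy 1.17.1). UMIs count each molecule once at its 3′ end and are not divided by length. With 1 library per genotype no test was possible, so a difference is called by size. Calls and intervals were tried on simulated Poisson counts, the model the intervals assume. These held no variation between cells or libraries, so the run tells nothing of such variation.

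The 10 genes and all lists were chosen with earlier results of these data known. All 10 are named, with the 3 highest and 3 lowest ratios of each pathway list and the 3 genes most alike to Nfkbia, Nfkb1 and Rel. Ier3 and Gadd45b, the examples Fos, Jun, Egr1 and Dusp1, and Kit, Ly6a and Trmt6 stand outside that rule. The marker Cavin2 was not found by symbol. Alternatives were other gates, thinning depths, minimum levels, no doublet removal, TMM factors (edgeR 4.0.16), median-of-ratios factors, and totals without mitochondrial and ribosomal protein genes; the groups by immediate early UMIs were added after seeing the data. Coordinates are from GENCODE M21 and promoters from RefSeq, both on GRCm38.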

Additional observations from a re-analysis of the deposited data

How the results depend on the processing

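No paired analysis was possible because each genotype has 1 library, and no replicate could be left out. Under other gates, depths, filters and scalings, 373 of 400 values of a gene in a class kept their sign and 349 stayed within the counting interval. The number of genes lower by at least 1 over all kept cells was 2 of 10 with TMM factors, median-of-ratios factors or totals without mitochondrial and ribosomal protein genes. It was 5 in LMPP-like and 1 in GMP-like cells with a gate of 4 markers, and 1 in HSC-like cells with thinned levels or median-of-ratios factors. With the GMP and neutrophil lists left out of the gate, 1 of 4 genes was lower in Monocyte/DC-like cells. In GMP-like cells Rel lost its call with a gate of 4 markers (-0.92) and at 1000 UMIs (-0.85), and Nfkbiz with median-of-ratios factors (-0.90) and a gate of 4 markers (-0.95). Rel in HSC-like cells turned to 0.0041 with the gate at 1000 UMIs, and Tnfaip3 in GMP-like cells to 0.19 with thinned levels. With the same mix of immediate early groups, Nfkbia, Nfkbie and Tnfaip3 turned to 0.59, 0.43 and 0.44, 3 genes were lower and 1 by at least 1, values that rest on 99 cKO cells of another make-up; without the group of 12 or more, Nfkbia was at 0.12 and 1 gene was lower by at least 1. With minimum levels of 1 CPM, 20 CPM and none, all genes lower numbered 878, 237 and 2165 and higher 535, 137 and 1076, receptors lower 2, 0 and 3, and at 20 CPM other inhibitors lower 0. The number of genes with a higher share in cKO was 0 at 1000 UMIs and 6 without thinning, and with a lower share 2 without thinning. Apart from the changes that come from the minimum, the thinning or the gate itself, the cause was not tested. Classes under 50 cells in a library gave no value: HSC-like and Monocyte/DC-like cells with a gate of 4 markers, Monocyte/DC-like cells at 1000 UMIs, and GMP-like cells without their list. Depth limits the low genes most, since Tnfaip3, Relb, Nfkb2, Nfkbiz, Nfkbid and Nfkbie had fewer than 20 UMIs over both libraries in some classes.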
